A study of Mus musculus with 48 samples.

Results

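Scavenger receptors and genes of brain border macrophages were followed by mRNA sequencing across the first week after experimental stroke in mice. The set held 10 of the 46983 genes listed in the count tables, found by their gene symbols: *Msr1*, *Marco*, *Cd36*, *Cd5l*, *Cd163*, *Mrc1*, *Stab1*, *Lyve1*, *Ms4a7* and *F13a1*. The list was selected from earlier results of these same libraries, including the comparisons of injured with sham-operated and control tissue. For that reason the calls below describe where each gene stood among all genes, and they are not independent evidence that the set changed.

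The libraries came from C57Black/6 male mice 3 months of age. In the MCAO groups the middle cerebral artery was permanently occluded by coagulation and then cut, after the dura over it had been opened and removed, which leaves small infarcts in parietal cortex. Sham-operated mice were sampled at the same times. The study describes its sham surgery as this operation with the coagulation left out, so by that description the dura was opened in sham mice too, and the control group was intact cortex from unoperated mice of 3 months. The 48 libraries formed 11 groups: control (n = 4), and sham and MCAO at 3 h, 12 h, 24 h, day 3 and day 7, with 4 sham libraries at each time and 5 MCAO libraries at each time except 24 h (n = 4). The labels give no genetic change and no test drug for any group. The study's methods place the sampled tissue in the injured cortical region, with both affected and non-affected brain tissue. Its results describe the bulk samples as nearly the whole hemisphere on the side of the lesion. Each value is therefore an average over the lesion and its surroundings, and tissue beyond cortex may be included. Lesion size in the sampled piece was not recorded in the labels.

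Scavenger receptors are surface proteins of macrophages and some endothelial cells that bind and take up modified lipoproteins, lipids, dead cells and other debris. Border macrophages live in the meninges, around brain vessels and in the choroid plexus, and in the healthy brain they carry receptors such as *Mrc1*, *Cd163*, *Lyve1* and *Stab1* that parenchymal microglia largely lack. After a cortical infarct, blood monocytes also enter the tissue and become macrophages, and many of the same receptors are used by these cells. In bulk tissue a higher level can mean more cells of a type or more RNA per cell, and these cannot be told apart.

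The genes lie on separate chromosomes or far apart in the GRCm38 genome, and all are protein coding. The class A scavenger receptors are *Msr1* (chr8:39581685-39642673, minus strand) and *Marco* (chr1:120474538-120505024, minus strand). *Cd36*, the receptor for long-chain fatty acids and oxidized lipids, is at chr5:17781690-17888801 on the minus strand. *Cd5l*, a secreted protein of tissue macrophages, and *Cd163*, the receptor for haemoglobin bound to haptoglobin, both have scavenger receptor cysteine-rich repeats and lie at chr3:87357881-87371073 and chr6:124304656-124330527, each on the plus strand. The endocytic receptors are *Mrc1* for mannose (chr2:14229392-14332057, plus strand), *Stab1*, which encodes stabilin-1 (chr14:31139013-31168641, minus strand), and *Lyve1* for hyaluronan (chr7:110850607-110863239, minus strand). *Ms4a7*, a membrane-spanning protein of macrophages, is at chr19:11321039-11336146 and *F13a1*, the A subunit of coagulation factor XIII, at chr13:36867178-37050244, both on the minus strand.

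For *Cd5l*, *Stab1*, *F13a1* and *Ms4a7*, which had their higher levels in the same libraries, the 250 bases before their start sites are shown from RefSeq (GRCm38.p6), read 5′ to 3′ along the gene. *Cd36* was also highest in MCAO libraries C and E of day 3 and C of day 7, and its window is not shown. The choice therefore does not mark the genes shown as a separate group. Capitals mark matches on either strand to GAGGAA, a word bound by PU.1-type ETS factors of myeloid cells, or to TGCTGA, a word of MAF half-sites. The windows are chr3:87357631-87357880 on the plus strand for *Cd5l*, and on the minus strand chr14:31168642-31168891 for *Stab1*, chr13:37050245-37050494 for *F13a1* and chr19:11336147-11336396 for *Ms4a7*.
Cd5l: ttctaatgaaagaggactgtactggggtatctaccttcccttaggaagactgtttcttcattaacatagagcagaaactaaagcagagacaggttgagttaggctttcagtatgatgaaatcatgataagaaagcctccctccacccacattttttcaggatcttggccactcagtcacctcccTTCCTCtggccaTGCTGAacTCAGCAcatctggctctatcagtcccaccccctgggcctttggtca
Stab1: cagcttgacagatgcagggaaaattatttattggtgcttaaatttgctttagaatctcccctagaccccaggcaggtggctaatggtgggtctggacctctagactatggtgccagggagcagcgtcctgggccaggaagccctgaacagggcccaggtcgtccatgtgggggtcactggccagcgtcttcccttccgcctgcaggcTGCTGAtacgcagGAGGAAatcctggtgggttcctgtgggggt
F13a1: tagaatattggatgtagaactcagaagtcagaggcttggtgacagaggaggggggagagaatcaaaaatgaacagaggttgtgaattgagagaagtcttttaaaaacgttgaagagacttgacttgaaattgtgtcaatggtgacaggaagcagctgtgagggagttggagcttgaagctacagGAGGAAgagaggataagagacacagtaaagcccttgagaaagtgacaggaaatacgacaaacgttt
Ms4a7: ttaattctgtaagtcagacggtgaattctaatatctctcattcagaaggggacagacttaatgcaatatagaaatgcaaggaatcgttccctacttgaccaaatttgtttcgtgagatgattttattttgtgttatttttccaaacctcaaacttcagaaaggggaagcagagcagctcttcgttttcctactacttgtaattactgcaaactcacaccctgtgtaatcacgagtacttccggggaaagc
The *Cd5l* window held 1 GAGGAA match, on its minus strand, and 2 TGCTGA matches, while the *Stab1* window held 1 of each, *F13a1* held 1 GAGGAA match and *Ms4a7* held neither. The table had a window for 8 members, all but *Msr1* and *Lyve1*. Of these 8, 5 held GAGGAA (*Cd5l*, *F13a1*, *Marco*, *Mrc1* and *Stab1*) and 3 held TGCTGA (*Cd36*, *Cd5l* and *Stab1*). Among all 32851 windows of 250 bases, 23.3% held GAGGAA and 16.1% held TGCTGA, and a match is a description of the letters only. The words do not overlap each other in these windows.

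Between 1522668 and 2826735 reads per library were counted in genes (median 1935856), and 1 read was worth between 0.363 and 0.632 CPM, the read count scaled to a common depth. Most of these genes were at or below a few reads in uninjured cortex, so their low values move in steps of 1 read. *Marco* had 1 read in all 48 libraries, in MCAO library C of day 3, and was the only member that did not pass the filter of more than 10 reads in total. The other 9 had between 163 (*Cd163*) and 1492 (*Stab1*) reads over all libraries. Cortical neuron markers summed to between 5792 and 12827 CPM in every library, so RNA of cortical neurons was present throughout.

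A pair of MCAO libraries stood apart for the members. Day 7 library C deviated most from its group, by a mean of 1.91 on the log2(CPM + 1) scale over the 10 genes, and day 3 library A was next at 1.77, ahead of 0.852 for day 3 library C. In day 7 library C, 6 members were far above the other 4 libraries, and in day 3 library A, 6 members were below all 4 others. Changes of members over sham or control that either library moved are therefore given with and without it.

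All of the members called in any comparison with sham or control cortex were called higher in injured tissue, at day 3 and day 7. Calls required, in edgeR's quasi-likelihood test, a p under 0.01 after Benjamini-Hochberg adjustment over the 19970 genes tested, and a log2 fold change beyond 0.58 in either direction. At day 3, 5 of the 9 tested members rose over sham (*Msr1*, *Cd36*, *Cd5l*, *Stab1* and *F13a1*), where 4.02% of all genes tested were called, and at day 7, 4 members rose (*Msr1*, *Cd36*, *Cd5l* and *Ms4a7*), where 3.50% were called. The rule that chose the members used these contrasts, so nothing is read from the counts themselves. The count at day 3 was 3 (*Cd5l*, *Msr1* and *Stab1*) without MCAO library C, without MCAO library E, without sham library A or without sham library D. At day 7 it was 1 without MCAO library C (*Cd5l*) and 1 without sham library D (*Cd36*). The calls over all genes moved too when single libraries were left out. They went from 802 to between 441 and 1353 at day 3, and from 698 to between 241 and 676 at day 7.

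At 3 h, 12 h and 24 h no member was called over sham by edgeR, where 0.110%, 0.411% and 0.0901% of all genes were called. The number of members at an unadjusted p under 0.05 was 0 at 3 h, 2 at 12 h (*Msr1* and *Lyve1*) and 2 at 24 h (*Msr1* and *Mrc1*). DESeq2 called 0, 0 and 1 member at these times, and the 1 was *Msr1*. The median log2 fold change of the 9 members was 0.46, 0.60 and 0.67 at the early times, 3.09 at day 3 and 2.11 at day 7, beside medians of all genes between 0.00 and 0.06. Without library A the day 3 median was 3.36, and without library C the day 7 median was 1.15.

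**Figure D1:**
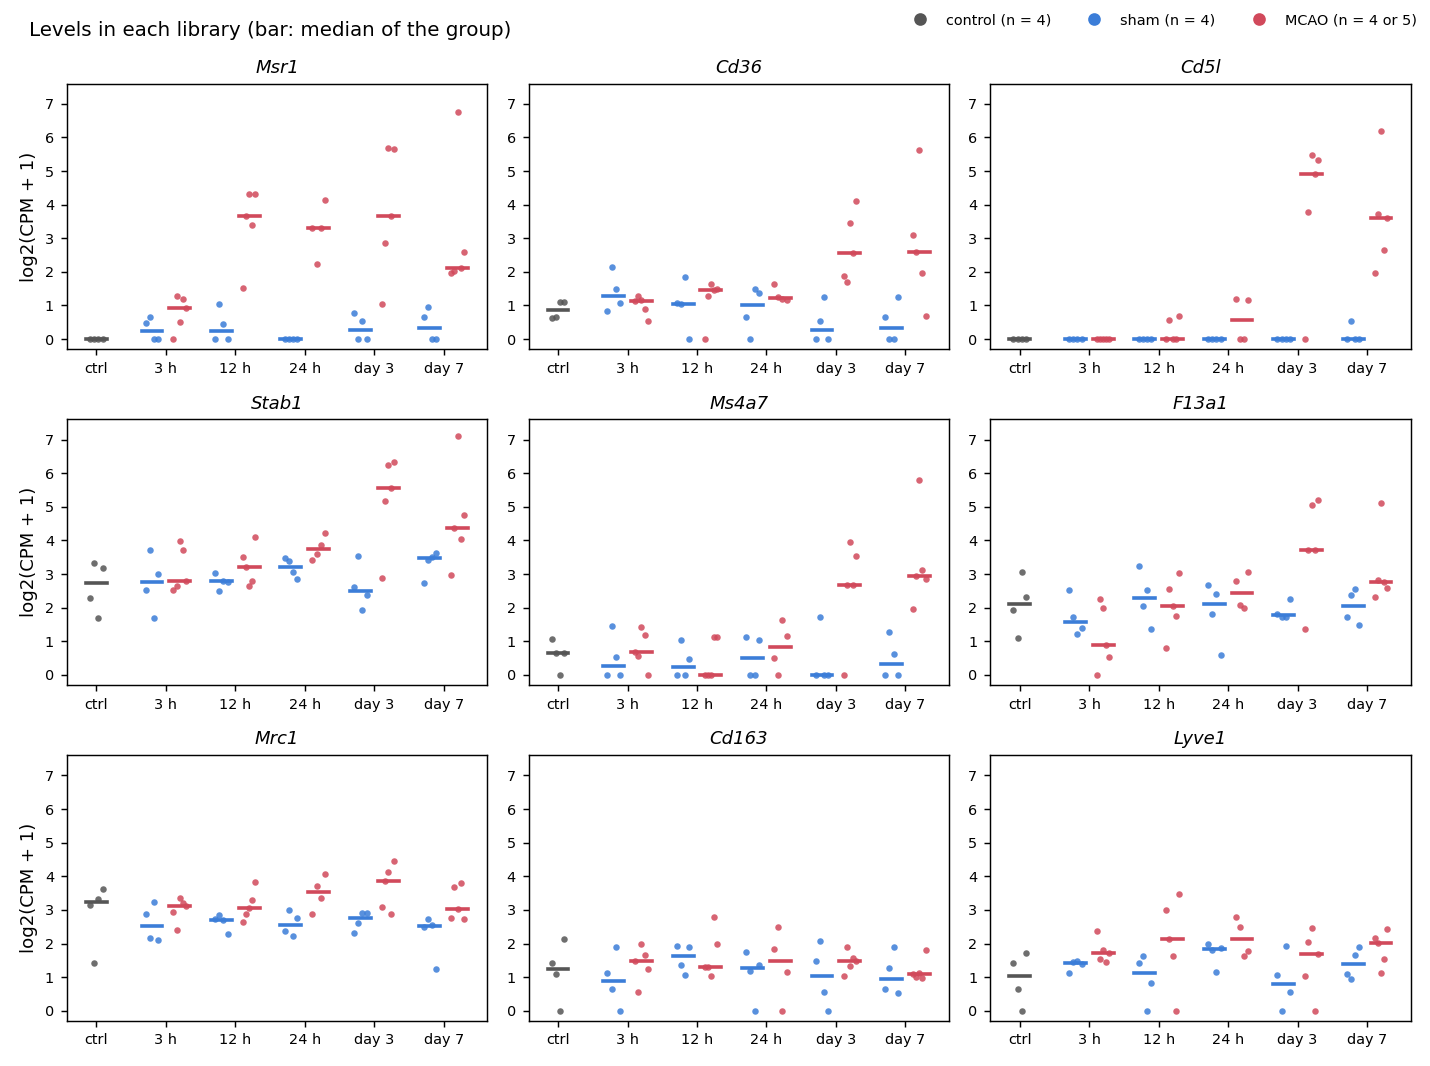
Level of the 9 tested members in each of the 48 libraries, as log2(CPM + 1), for control, sham (blue) and MCAO (red) at each time, with a bar at the group median. *Msr1* was already higher than in sham in all MCAO libraries at 12 h and 24 h, and *Cd163* stayed between 0 and 5.88 CPM throughout. *Cd5l*, *Stab1*, *Ms4a7*, *F13a1* and *Cd36* had their highest values after MCAO at day 3 and day 7. Library C was the highest of day 7 for each of them. At day 7 library A lay inside the sham range for *Stab1* and *F13a1*, and library E for *Cd36*. Day 3 library A did not lie above the shams for *Cd5l*, *Stab1*, *Ms4a7* and *F13a1*.

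*Msr1*, which takes up modified low-density lipoprotein, was the member that separated earliest. It had 0 reads in all 4 control libraries and 11 reads in the 20 sham libraries together, against 657 in the 24 MCAO libraries. At 3 h the MCAO libraries held 0, 1.42, 0.419, 1.29 and 0.911 CPM (A to E), next to 0.395, 0.576, 0 and 0 CPM in sham. Those groups overlapped, and 3 of the 5 MCAO libraries lay above every sham.

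By 12 h MCAO libraries A to E held 1.85, 11.7, 18.8, 9.41 and 19.1 CPM of *Msr1*, while sham libraries A to D held 0, 1.04, 0.370 and 0 CPM. At 24 h the 4 MCAO libraries held 8.92, 3.74, 8.90 and 16.5 CPM, and all 4 shams held 0 reads. At both times every MCAO library lay above every sham library, which was true of 2.03% of all genes tested at 12 h and 3.73% at 24 h. Pooled over libraries, the level at 12 h was 33.6 times that of sham, with a 95% counting interval of 11.2 to 166 that rests on 3 sham reads, and at 24 h it was at least 20.6-fold higher than the limit set by 3 reads over the sham group. The adjusted p of 0.0341 at 12 h and 0.110 at 24 h (edgeR) missed the threshold of 0.01.

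On day 3 the *Msr1* level spread widely among MCAO libraries, at 1.07, 6.33, 49.9, 11.7 and 48.9 CPM, while shams held 0.725, 0, 0.467 and 0 CPM. The groups did not overlap, although library A had only 2 reads, as many as sham library A. *Msr1* had a fitted log2 fold change of 5.95 ± 1.21 (SE; adjusted p = 0.000789, edgeR), and without library A it was 6.25 (adjusted p = 0.000123). At day 7 library C held 108 CPM, and the other MCAO libraries (A, B, D and E) held 2.88, 3.05, 3.36 and 5.01 CPM, all above the shams at 0.572, 0.933, 0 and 0 CPM. Its change at day 7 was 5.78 ± 1.22 (adjusted p = 0.00185), and without library C it was 3.03 with an adjusted p of 0.0984, so the day 7 call rested on that library, and it was also lost without sham library D (adjusted p = 0.0150). The pooled ratio to sham without library C was 9.30, with a counting interval of 2.85 to 48.

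*Marco*, the other class A receptor, gave no level that could be compared at this depth: its 1 read was at or under the limit of 3 reads in every group, and no fold is given.

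*Cd36* was at 0 to 3.45 CPM in every control and sham library. At day 3 the MCAO libraries held 2.67, 2.26, 9.99, 4.88 and 16.3 CPM, all above the shams of that day at 0, 0.462, 1.40 and 0 CPM. *Cd36* had a log2 fold change of 3.86 ± 0.94 (adjusted p = 0.00490, edgeR), but the call was lost without any single one of 5 libraries, MCAO C or E or sham A, B or D, with adjusted p between 0.0148 and 0.0325. Without library A the change was 4.07 (adjusted p = 0.00207). At day 7 the MCAO libraries A to E held 7.50, 5.09, 48.8, 2.88 and 0.626 CPM against 0.572, 0, 0 and 1.37 CPM in sham, and library E lay inside the sham range. Its change at day 7 was 4.52 ± 0.93 (adjusted p = 0.00126), and without library C it was 2.87 with an adjusted p of 0.0456. At 3 h, 12 h and 24 h the means of the MCAO group were 1.04 ± 0.384, 1.42 ± 0.824 and 1.50 ± 0.420 CPM (SD), beside 1.78 ± 1.19, 1.19 ± 1.06 and 0.999 ± 0.853 CPM in sham, which overlapped. Brain endothelial cells also carry *Cd36*, and the endothelial markers summed to between 351 and 697 CPM after MCAO at day 3 and between 367 and 394 CPM in sham. At day 7 the sums overlapped, at 350 to 421 CPM after MCAO and 321 to 407 CPM in sham. The part of these cells in the *Cd36* level was not tested.

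*Cd5l* was nearly absent outside injured tissue. Of its 451 reads, 450 were in MCAO libraries, 1 was in sham library B of day 7, and none were in control cortex. It was at 0 reads in all 5 MCAO libraries of 3 h, at 2 reads over the 12 h group and at 5 reads over the 24 h group. On day 3 libraries A to E held 0, 12.7, 43.5, 29.3 and 39.2 CPM, and all 4 shams were at 0. Thus 4 of 5 libraries were high and library A was not separable from sham.

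The pooled level of *Cd5l* at day 3 was at least 77.8-fold higher than the sham limit of 3 reads over the group. Its adjusted p was 0.000224 (edgeR), and the fitted log2 fold change of 8.66 depends on the prior count because the shams were at 0. Without library A the level was at least 94.9-fold higher (adjusted p = 7.11e-06). At day 7 the MCAO libraries held 2.88, 12.2, 72.0, 5.28 and 11.3 CPM, all above the shams at 0, 0.467, 0 and 0 CPM. The ratio to sham was 156, with a counting interval of 27.7 to 6212 that rests on 1 sham read, and without library C it was 62.2, with an interval of 10.7 to 2500. *Cd5l* was the only member still called at day 7 without library C, at a log2 fold change of 5.41 (adjusted p = 0.00849). Without sham library D its adjusted p at day 7 was 0.0109, and with DESeq2 it was 0.0287, and both miss the threshold.

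*Cd163*, in contrast, was not called at any time. Its reads numbered 11 in control, 60 in sham and 92 in MCAO libraries. At day 3 the MCAO libraries held 1.07, 2.71, 1.50, 1.95 and 1.76 CPM and the shams 1.81, 3.23, 0.467 and 0 CPM. Every MCAO value fell inside the sham range, and the log2 fold change was 0.36 ± 0.76 (adjusted p = 0.838). At day 7 it was 0.07 ± 0.83 (adjusted p = 0.980), and its sign turned when single libraries were left out. The 95% counting interval of the pooled ratio at day 3 ran from 0.605 to 2.85.

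*Stab1*, a receptor for modified lipoproteins and dead cells, was measurable in all 48 libraries. *Stab1* levels in control libraries A to D were 3.91, 8.99, 2.26 and 7.99 CPM. The MCAO means were 8.54 ± 4.53 CPM at 3 h, 9.16 ± 4.37 at 12 h and 13.1 ± 3.47 at 24 h, beside sham means of 6.54 ± 4.20, 5.93 ± 1.05 and 8.30 ± 1.79 CPM, and none of these differences passed the test. On day 3 the MCAO libraries held 6.41, 34.8, 75.4, 45.9 and 79.8 CPM against 5.08, 10.6, 2.80 and 4.22 CPM in sham. Library A lay inside the sham range, and the other 4 lay above every sham.

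The log2 fold change of *Stab1* at day 3 was 3.09 ± 0.58 (adjusted p = 0.000222, edgeR), and it was called whichever library of that day was left out, at 3.36 (adjusted p = 1.04e-05) without library A. At day 7 the MCAO libraries held 6.92, 19.9, 136, 15.3 and 26.3 CPM against 5.72, 9.80, 10.4 and 11.4 CPM in sham. Its change of 2.11 ± 0.55 had an adjusted p of 0.0102, just outside the threshold, while the called members nearest to it were *Ms4a7* with 0.00197 at day 7 and *Cd36* with 0.00490 at day 3. Without library C the change was 0.86 (adjusted p = 0.309), and the pooled ratio was 1.79 (counting interval 1.33 to 2.41). DESeq2 called *Stab1* at day 7 with an adjusted p of 0.00565.

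*Mrc1*, the mannose receptor also named CD206, did not pass the test at any time, and its single libraries ran from 1.37 to 21.1 CPM. Its level in control libraries was 7.81, 1.69, 9.03 and 11.4 CPM. The MCAO and sham means were 7.21 ± 1.90 and 5.39 ± 2.51 CPM at 3 h, 8.15 ± 3.07 and 5.32 ± 1.00 at 12 h, and 10.9 ± 4.06 and 5.13 ± 1.51 at 24 h. At day 3 MCAO libraries A to E held 7.47, 13.6, 16.5, 6.35 and 21.1 CPM and the shams 3.99, 5.08, 6.54 and 6.56 CPM, with library D inside the sham range. Its log2 fold change was 1.24 ± 0.39 (adjusted p = 0.0356), and 1.38 (adjusted p = 0.0134) without library A. At day 7 the MCAO libraries held 5.77, 11.7, 7.14, 13 and 5.64 CPM, all above the shams at 4.58, 5.60, 4.91 and 1.37 CPM, and the change was 1.09 ± 0.42 (adjusted p = 0.0960). Against control cortex, the day 7 ratio of *Mrc1* was 1.20 (counting interval 0.836 to 1.73). The control mean was 7.49 ± 4.15 CPM beside 4.11 ± 1.88 CPM in the day 7 shams. Those groups overlapped, and their difference was not called (adjusted p = 0.629, edgeR).

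*Lyve1*, carried by some border macrophages and by lymphatic endothelium, was also not called at any time. Its highest values came at 12 h, at 7.05, 3.40, 2.09, 0 and 10.1 CPM in MCAO libraries A to E against 1.68, 2.09, 0 and 0.779 CPM in sham. Libraries A and E were high, and library D had no reads. The log2 fold change at 12 h was 2.05 ± 0.74 (adjusted p = 0.163). At day 3 the change was 0.97 ± 0.76 (adjusted p = 0.491) and at day 7 0.64 ± 0.73 (adjusted p = 0.634). The 5 lymphatic endothelial markers summed to 112 to 188 CPM after MCAO at 12 h and to 92.3 to 114 CPM in sham. Only *Pdpn*, which reactive glia also make, was called higher among them, at 42.6 to 119 CPM against 7.76 to 25.1 CPM in sham. The median log2 fold change of the tested markers was -0.05, so the higher sum does not describe the list as a whole. Of these 5 markers, *Ccl21a* was at 0 in all 11 groups and the other 4 were above 0 in every group. Their sum was already 92.5 to 128 CPM in control cortex. Which cells carried these 4 was not tested, so their presence does not show lymphatic endothelium in the tissue. The part of the markers in the *Lyve1* level was not tested.

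*Ms4a7*, which separates border and monocyte-derived macrophages from microglia in the healthy brain, had 4 reads in control and 20 in sham libraries. At day 3 the MCAO libraries held 0, 5.42, 14.5, 5.37 and 10.6 CPM against 0, 2.31, 0 and 0 CPM in sham. The change of 3.56 ± 1.01 on the log2 scale had an adjusted p of 0.0173 (edgeR), and it passed without MCAO library A (3.88, adjusted p = 0.00365) or without sham library B (adjusted p = 0.00455). At day 7 the MCAO libraries held 2.88, 6.62, 54.1, 7.68 and 6.26 CPM, all above the shams at 0, 1.40, 0.545 and 0 CPM. The log2 fold change was 4.78 ± 1.03 (adjusted p = 0.00197). Without library C it was 3.40 with an adjusted p of 0.0424, and the pooled ratio was 11.8 (counting interval 4.30 to 45.2). The call was also lost without sham library A (adjusted p = 0.0102) or D (adjusted p = 0.0168). *Ms4a7* is one of a family of neighbouring *Ms4a* genes, and reads that map to more than 1 place, 24.0% to 37.3% of a library, were not counted.

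*F13a1*, expressed by macrophages and by platelets and their precursors, had its higher levels at day 3. At that time MCAO libraries A to E held 1.60, 12.2, 32.0, 12.2 and 36.1 CPM, against 2.54, 2.31, 2.34 and 3.75 CPM in sham. Library A lay below all 4 shams and the other 4 above them. *F13a1* had a log2 fold change of 2.77 ± 0.66 (adjusted p = 0.00408, edgeR), and of 3.06 (adjusted p = 0.000413) without library A. The call was lost when any single sham library, or MCAO library C or E, was left out, with adjusted p between 0.0119 and 0.0266. At day 7 the libraries held 4.04, 6.11, 33.9, 5.76 and 5.01 CPM against 2.29, 4.20, 4.91 and 1.82 CPM in sham, and the change was 1.70 ± 0.67 (adjusted p = 0.101). Without library C it was 0.66 (adjusted p = 0.605), and the pooled ratio was 1.61 (counting interval 0.955 to 2.75). At 3 h and 12 h the MCAO mean was below that of sham, at 1.61 ± 1.65 against 2.51 ± 1.54 CPM and 3.65 ± 2.45 against 4.47 ± 2.92 CPM, within the spread of the libraries.

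**Figure D2:**
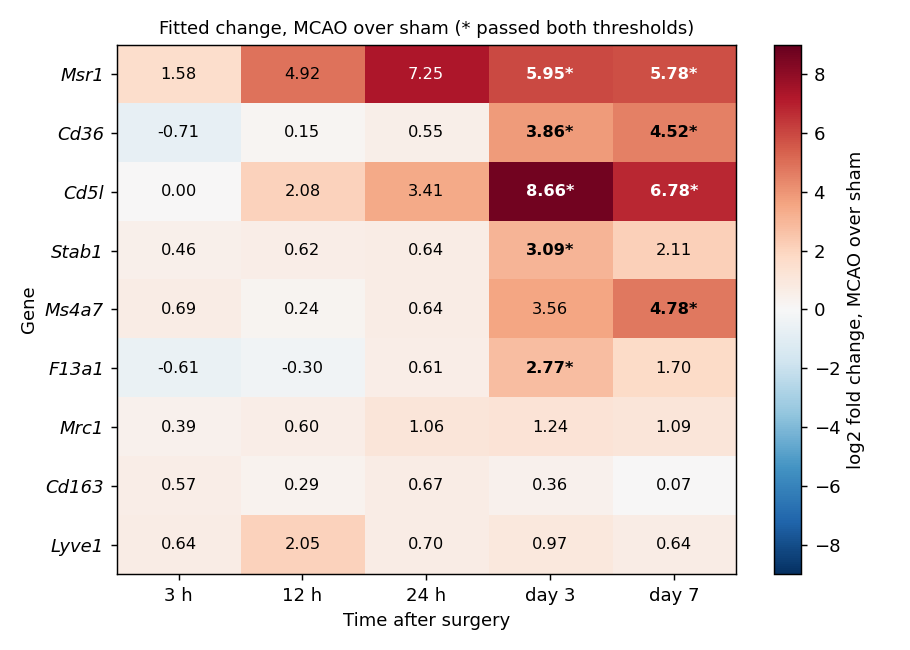
Fitted log2 fold change of MCAO over sham for the 9 tested members at each time, with colour from blue (lower) to red (higher) and an asterisk where both thresholds were passed. Asterisks stand only in the columns of day 3 (5 members) and day 7 (4 members); the values of *Msr1* at 24 h and of *Cd5l* up to day 3 depend on the prior count because all 4 shams were at 0.

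Counting the members whose MCAO libraries all lay above all shams gave 0 of 10 at 3 h, where this held for 2.27% of all genes tested, and 1 at 12 h and 1 at 24 h, both *Msr1*. It gave 2 at day 3 (*Msr1* and *Cd36*), beside 4.33% of all genes, and 4 at day 7 (*Msr1*, *Cd5l*, *Mrc1* and *Ms4a7*), beside 5.38%. Library A of day 3 lay at, below or among the shams for *Cd5l*, *Stab1*, *Ms4a7* and *F13a1*, and the other 4 MCAO libraries lay above all shams for each of these genes.

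Against control cortex the members called were *Cd5l*, *Msr1* and *Stab1* at day 3, where 3.10% of all genes were called, and *Cd36*, *Cd5l*, *Ms4a7*, *Msr1* and *Stab1* at day 7, where 1.50% were called. *Cd5l* and *Msr1* had no reads in control cortex, and their pooled levels were at least 60.0-fold and 57.0-fold higher at day 3 and at least 46.7-fold and 54.0-fold higher at day 7. Without library C the day 7 limits were 18.6-fold for *Cd5l* and 8.33-fold for *Msr1*, and without library A the day 3 limits were 73.2-fold and 69.0-fold. The log2 fold change of *Stab1* over control was 3.06 ± 0.59 (adjusted p = 0.000467) at day 3 and 2.80 ± 0.59 (adjusted p = 0.00301) at day 7, where it was 1.55 (adjusted p = 0.130) without library C. Leaving out MCAO library A raised the count at day 3 to 5, adding *F13a1* and *Ms4a7*. The count of 5 at day 7 was 0 without MCAO library C, 0 without control library A or D, 2 without control library C and 3 without control library B. With single libraries left out, the calls over all genes went from 619 to between 364 and 1075 at day 3. At day 7 they went from 300 to between 82 and 318. At 3 h, 12 h and 24 h no member was called over control by edgeR, beside 0.130%, 0.856% and 0.280% of all genes. The members at an unadjusted p under 0.05 numbered 0, 2 and 2 at these times (*Msr1* and *Lyve1* at both 12 h and 24 h), and DESeq2 called *Msr1* alone at 12 h and at 24 h. With DESeq2 *Cd5l* was not called over control at day 3 (adjusted p = 0.0159) or day 7 (adjusted p = 0.0309), and *F13a1* was called at day 3 (adjusted p = 0.0080).

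No member was called in sham against control cortex at any time. Of all genes, edgeR called 0% at 3 h, 0.0351% at 12 h, 0.0100% at 24 h, 0% at day 3 and 0% at day 7. No member had an unadjusted p under 0.05 in these 5 comparisons, and DESeq2 called none. The median log2 fold change of the members lay between -0.15 (day 7) and 0.03 (12 h).

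The time course of the MCAO effect was tested as the difference between neighbouring times, each relative to its own sham. No member passed, beside 0.0100% of all genes between 3 h and 12 h, 0.0100% between 12 h and 24 h, 0.0100% between 24 h and day 3 and 0% between day 3 and day 7, and DESeq2 called none. For *Cd5l* the steps up to day 3 could not be decided by this test, because its shams of those times were all at 0 reads. Its MCAO groups held 5 reads at 24 h and 264 at day 3, and the fitted difference of 5.25 depends on the prior count. From 24 h to day 3, 3 members had an unadjusted p under 0.05: *Stab1*, whose effect was larger at day 3 by 2.44 ± 0.85 on the log2 scale (adjusted p = 0.400), *Cd36*, by 3.31 ± 1.48 (adjusted p = 0.525), and *F13a1*, by 2.15 ± 1.01 (adjusted p = 0.552). In the other 3 steps no member did. From day 3 to day 7 the effect of *Stab1* differed by -0.98 ± 0.78, that of *F13a1* by -1.06 ± 0.94 and that of *Ms4a7* by 1.22 ± 1.68, with adjusted p of 0.558, 0.605 and 0.774. Without library C, the effect of *Stab1* differed by -2.23 from day 3 to day 7 (unadjusted p = 0.00143, adjusted p = 0.0633, edgeR), that of *F13a1* by -2.10 (adjusted p = 0.199) and that of *Ms4a7* by -0.16 (unadjusted p = 0.927). Without library A, the day 3 effect of *Stab1* exceeded that at 24 h by 2.72 (adjusted p = 0.116). None of these passed the threshold, and a p that misses the threshold does not show that the effects were equal.

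Day 7 library C divided the members into those that were high in it and those that were not. Relative to the median of the other 4 MCAO libraries of that day, its level was 33.6 times for *Msr1*, 12.2 times for *Cd36*, 8.70 times for *Cd5l*, 8.41 times for *Ms4a7*, 7.74 times for *Stab1* and 6.30 times for *F13a1*. For *Cd163*, *Mrc1* and *Lyve1* the same ratios were 1.10, 0.817 and 0.365. Most of the day 7 calls rested on library C itself, so this division is not independent of which members were called at day 7.

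The same library held 2312 CPM of the 11 microglia markers against 713 to 939 CPM in the other 4, 140 CPM of the 12 monocyte and macrophage markers against 35.1 to 51.8 CPM, and 5518 CPM of the 13 meningeal fibroblast markers against 215 to 605 CPM. Of its fibroblast sum, *Col1a1* held 2090 CPM and *Col3a1* 1266 CPM. Its cortical neuron markers summed to 5792 CPM, below the 8928 to 9344 CPM of the others, and its endothelial markers (405 CPM) lay inside their range of 350 to 421 CPM. Day 3 library A held 599 CPM of microglia markers against 1056 to 1787 CPM, 33.6 CPM of monocyte and macrophage markers against 66.0 to 341 CPM, and 10945 CPM of neuron markers against 7229 to 9191 CPM. Its fibroblast markers, at 230.1 CPM, lay inside the range of the others, 89.4 to 1415 CPM. The part of these differences in the members' levels was not tested.

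**Figure D3:**
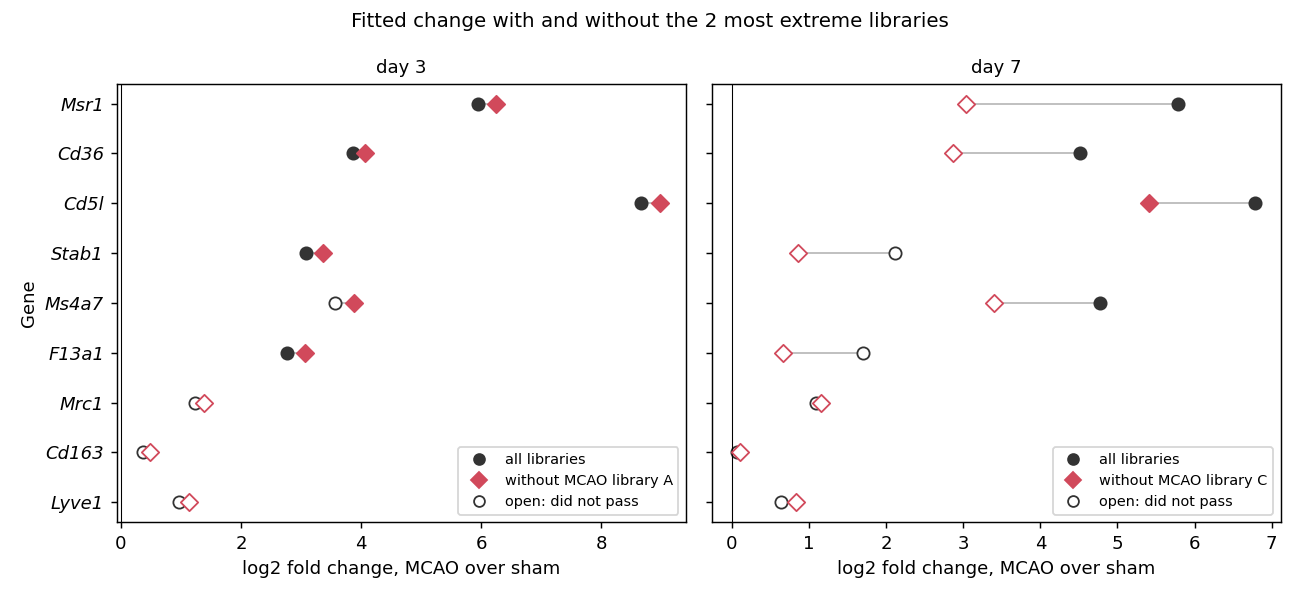
Fitted log2 fold change of MCAO over sham for each tested member with all libraries (circles) and without day 3 library A or day 7 library C (diamonds); filled symbols passed both thresholds. Leaving out library A raised the day 3 values slightly and added *Ms4a7* (from 3.56 to 3.88), while leaving out library C lowered the day 7 values of 6 members (*Msr1* from 5.78 to 3.03) and left *Cd5l* as the only filled diamond.

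Across the 48 libraries, the genes most like each member were found by Pearson's r of log2(CPM + 1) among 13871 genes with a mean of at least 2 CPM. These points share groups, tissue composition and depth, so the values are descriptions. Most like *Msr1* were *Msn* (moesin, r = 0.94), *Lgals3* (galectin-3, 0.93) and the chemokine gene *Ccl6* (0.92). Most like *Cd5l* were the lysosomal protease genes *Ctsd* (0.96) and *Ctss* (0.95) and the cell cycle gene *Ube2c* (0.95). *Stab1* was nearest to *Ctsh* (0.89), *Cd5l* (0.87) and the complement gene *C1qb* (0.87), and *Ms4a7* to *Cd5l* (0.89), *Gpnmb* (0.88) and *Ctsd* (0.88). *Cd36* was nearest to *Spp1* (osteopontin, 0.82), *Ucp2* (0.81) and *Tyrobp* (0.80), and *F13a1* to *Lgals1* (0.81), *Tln1* (0.81) and *Alox5ap* (0.80).

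For *Mrc1* and *Lyve1* the nearest genes were less close. They were *Fcgr4* (0.67), *Cebpd* (0.66) and *Nfkbiz* (0.66) for *Mrc1*, and *Mmgt1* (0.60), *Mrfap1* (0.60) and *Asgr1* (0.58) for *Lyve1*. *Cd163*, with a mean of 1.68 CPM, was below the level required.

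Other scavenger and uptake receptors, a list of 20 genes of which 19 were tested, were called higher over sham for 1 gene at 12 h (*Cd14*), 4 at day 3 (*Cd68*, *Cxcl16*, *Cd14* and *Clec7a*) and 5 at day 7 (*Axl*, *Cd68*, *Cxcl16*, *Lrp1* and *Clec7a*), and none was called lower. *Clec7a*, the beta-glucan receptor dectin-1, was at 0 in all shams of day 7 and at 5.28 to 89.2 CPM after MCAO (adjusted p = 6.97e-05). *Cd68*, a lysosomal scavenger receptor of phagocytes, was at 17.3 to 254 CPM against 6.39 to 7.47 CPM (log2 fold change 3.37, adjusted p = 0.00012). The median log2 fold change of the list was 0.84 at day 3 and 0.88 at day 7. Without library C the number called at day 7 was 2 (*Cd68* and *Clec7a*), and without library A the number at day 3 was 5.

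Among 16 other border macrophage genes, 7 were called higher at day 3 (*Ccl8*, *Dab2*, *Clec4n*, *Cbr2*, *Pf4*, *Folr2* and *Ninj1*) and 3 at day 7 (*Clec4n*, *Siglec1* and *Ninj1*), with list medians of 1.65 and 1.71. None was called at 3 h, 12 h or 24 h, and none lower. *Folr2*, a folate receptor, had 0 reads in the day 3 shams and 0 to 8.37 CPM after MCAO (adjusted p = 0.00314), and *Clec4n*, which encodes dectin-2, was at 2.44 to 18.0 CPM against 0 to 0.467 CPM (adjusted p = 0.00162). Without library A the number at day 3 was 7 again, and without library C the number at day 7 was 0, with a list median of 0.81.

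Of the 12 infiltrating monocyte and macrophage markers, 1 was called higher at 12 h, 1 at 24 h (*S100a4* at both), 5 at day 3 (*S100a4*, *Arg1*, *Plac8*, *Itgal* and *Ccr2*) and 2 at day 7. *Ccr2*, the monocyte chemokine receptor, was at 1.60 to 43.5 CPM at day 3 against 0 to 0.462 CPM in sham. Their summed level at day 3 was 33.6 to 341 CPM after MCAO and 12.7 to 48.1 CPM in sham, and between 5 and 8 of the 12 were at 0 in each sham group. Microglia markers were called higher for 6 of 11 at day 3, among them *Olfml3* (log2 fold change 3.22) and *Csf1r* (2.26), and 5 of 11 at day 7, and *P2ry12* was called lower at 12 h. Their sum was 599 to 1787 CPM against 300 to 388 CPM in sham at day 3, and none was at 0 in any group. Without day 3 library A the day 3 counts were 7 monocyte and 9 microglia markers, and without day 7 library C the day 7 counts were 1 and 1. Markers of both kinds were called at day 3 and day 7, as members were, and *S100a4* and *P2ry12* also at earlier times, when no member was called. Their part in the members' levels was not tested.

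**Figure D4:**
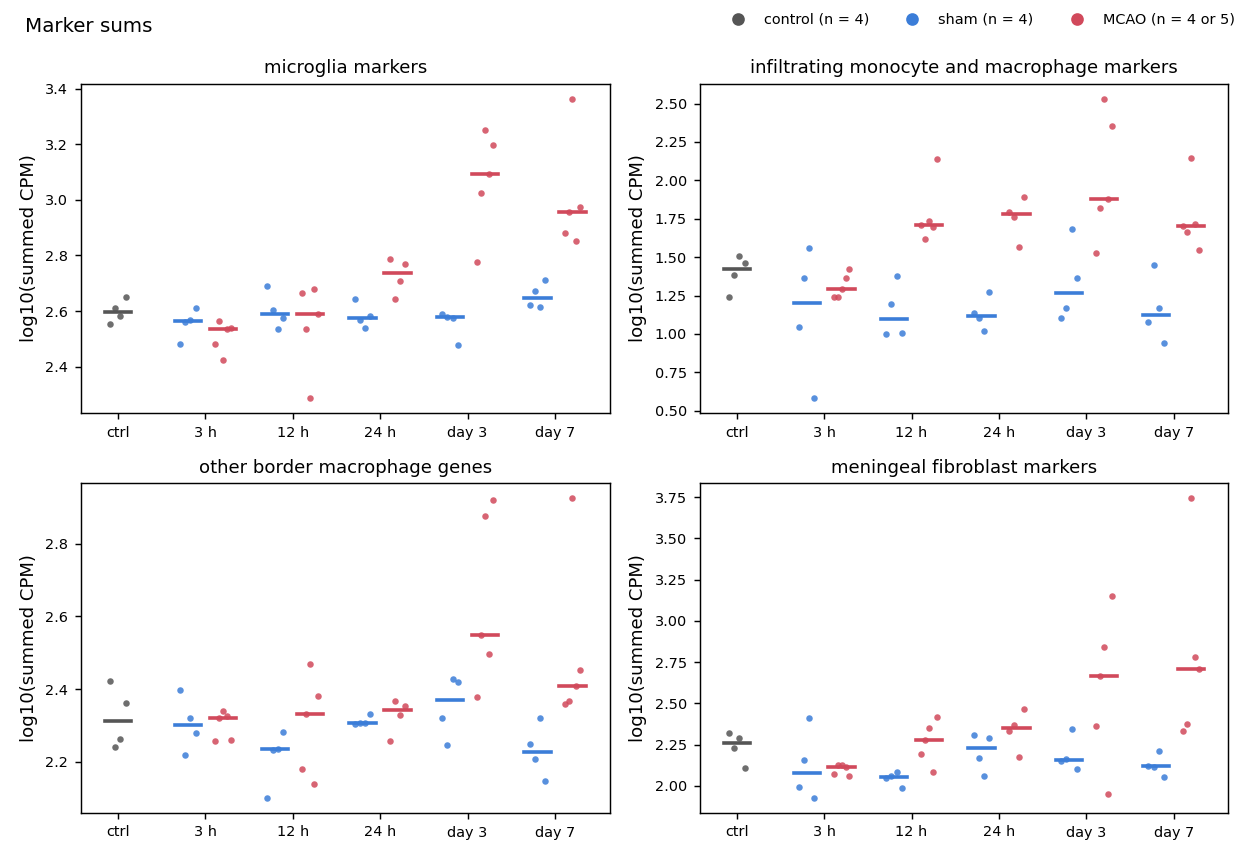
Summed CPM of 4 marker lists in each library, as log10, for control, sham (blue) and MCAO (red), with a bar at the group median. Monocyte and macrophage markers were higher in all MCAO libraries than in all shams at 12 h (41.3 to 138 against 10.1 to 23.7 CPM) and at 24 h (36.9 to 77.6 against 10.4 to 18.9 CPM), and day 7 library C is the highest point of that day in all 4 panels.

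Other cells of the border and the blood moved in part. Of 13 meningeal fibroblast markers, 3 were called higher at day 3 (*Col1a1*, *Dcn* and *Col3a1*), 4 at day 7 (the same and *Col1a2*) and 1 at 12 h (*Aldh1a2*). The largest at day 7 were *Col3a1* (13.2 to 1266 CPM against 1.37 to 5.45 CPM) and *Col1a1* (39.2 to 2090 CPM against 9.73 to 14.6 CPM). The list median was 0.44 at day 3 and 0.93 at day 7. *Lum*, *Ogn*, *Fmod*, *Slc6a13*, *Slc22a6*, *Slc47a1*, *Slc13a4* and *Gjb2* were not called over sham at any time. The calls therefore do not describe the list as a whole. Without library A the day 3 number was 5, and without library C the day 7 number was 3. Of 11 endothelial markers, *Slco1a4* and *Itm2a* were called lower at 12 h, by 1.12 and 1.00 on the log2 scale, and 2 were called higher at day 3 (*Pecam1* and *Cdh5*). *Pdpn* was called higher at 12 h, 24 h and day 3 among the 4 tested lymphatic endothelial markers, and it is also made by reactive glia. The granulocyte genes *S100a8* and *S100a9* were called at 12 h and day 3 (2 of 8), red blood cell genes at 12 h (1 of 5), day 3 (3) and day 7 (4), and none of the 7 tested choroid plexus genes at any time. Choroid plexus markers summed to 507 CPM in control library A, and to 12.4, 5.64 and 0.571 CPM in control libraries B, C and D. The part of this difference in the comparisons with control was not tested. Among the cortical neuron genes, *Snap25* was called lower at day 3 and *Rbfox3* at day 7.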

How the data were processed

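Bulk mRNA of 48 mouse brain samples was profiled with QuantSeq 3′ FWD libraries (polyA, no molecular identifiers). Per the study's methods and labels, the authors trimmed reads with Trimmomatic, removed ribosomal reads with SortMeRNA, aligned them with STAR 2.5.2b to GRCm38 with ERCC spike-ins and deposited raw counts per gene from HTSeq, with replicates kept apart. Nothing was normalized in the deposited counts. A second deposited matrix was not used. Rows for reads without a gene (no feature, median 23.5%; ambiguous, 0.400%; not unique, 33.5%) and ERCC rows (3.71% to 5.97% of counts) were left out of library sizes. Of 46983 gene IDs, 46488 had a symbol in the reference annotation.

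Levels are CPM on TMM-scaled library sizes. One edgeR 4.0.16 quasi-likelihood fit (R 4.3.3) of 11 groups without covariates tested the 19970 genes with more than 10 counts, and calls used the study's thresholds, 0.01 for the Benjamini-Hochberg adjusted p and 0.58 for the size of the log2 fold change. The biological coefficient of variation was 24.9%. Standard errors are the absolute log2 fold change divided by the square root of F. Pooled ratios of summed counts carry exact (Clopper-Pearson) 95% intervals, which cover counting error only, and a group at 0 was set to a limit of 3 reads over the group. The steps were tested on simulated data, in which only genes at higher levels were changed and all genes had the same spread. That simulation does not cover members with few reads, with shams at 0 or with a wide spread. Alternatives were DESeq2 1.42.0 size factors, DESeq2 in place of edgeR, filterByExpr, no filter, a fit of the compared groups only, ERCC scaling, a replicate block and leaving out each library.

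The members and gene lists were chosen with earlier results of these data known. All 10 members are named, and so are the 3 genes most like each member with a mean of at least 2 CPM, and up to 2 called genes in each direction per list at the time with most calls. Names beyond that were chosen after their values were seen. Libraries were grouped by condition and time in the labels, which give each a replicate letter. The study gives at least 4 mice per condition, but the labels do not tie libraries to mice, so p-values measure the spread between these libraries. Of the libraries, 0 pairs were identical. Promoters came from RefSeq (GRCm38.p6). The count of called cortical neuron markers is not reported here.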

Additional observations from a re-analysis of the deposited data

Results flagged for a closer look

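Dixon's criterion at 95% flags about 1 of 20 by chance where values are normally distributed, and its rate for low counts with ties was not determined. Of 72 combinations of member and group with more than 3 reads in a library, 9 had a library far from the others by this criterion. Of these, 6 were MCAO library C of day 7: *Msr1* at 108 CPM (others 2.88 to 5.01), *Cd36* at 48.8 CPM (others 0.626 to 7.50), *Cd5l* at 72.0 CPM (others 2.88 to 12.2), *Stab1* at 136 CPM (others 6.92 to 26.3), *Ms4a7* at 54.1 CPM (others 2.88 to 7.68) and *F13a1* at 33.9 CPM (others 4.04 to 6.11). All of these came from 1 library, so they are not separate observations. Another 3 were at low counts: *Cd163* in MCAO library E of day 7 at 2.51 CPM (4 reads, others 0.960 to 1.19), *Ms4a7* in sham library B of day 3 at 2.31 CPM (5 reads, others 0) and *F13a1* in sham library D of day 3 at 3.75 CPM (8 reads, others 2.31 to 2.54). Day 3 library A was not among them.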

How the results depend on the processing

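Depth limits the members with few reads: 1 read is 0.363 to 0.632 CPM, and *Cd163* and *Lyve1* had at most 10 and 19 reads in any library. In the comparison with sham, the number of members called was 0 with all libraries and 1 (*Msr1*) at 12 h without the filter and at 24 h without the filter, with DESeq2 or with the fit of the compared groups only. That fit called 3 in place of 5 at day 3 and 1 in place of 4 at day 7. Against control, *Msr1* was the 1 member called at 12 h with ERCC scaling, no filter, the replicate block, DESeq2 and the compared groups only, and at 24 h with no filter, the replicate block, DESeq2 and the compared groups only. At day 3 the count of 3 became 5 with no filter and 0 with the compared groups only, and at day 7 the count of 5 became 3 with the replicate block and 0 with the compared groups only. Leaving out each library gave 3 to 6 members over sham at day 3, 1 to 5 at day 7, and over control 0 to 1 at 12 h (1 without MCAO library A), 3 to 5 at day 3 and 0 to 5 at day 7. The calls over all genes moved as well. Leaving out each library gave 441 to 1353 over sham at day 3 and 241 to 676 at day 7. Over the other settings they ran from 339 to 1033 and from 302 to 1096. Over control those settings gave 224 to 861 at day 3 and 165 to 463 at day 7. The cause of these moves was not tested, apart from the smaller number of libraries or genes that some of them use.

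The fitted log2 fold change of *Cd163* ranged from -0.03 (without sham library D) to 1.10 at day 3 and from -0.23 (without MCAO library E or sham library D) to 0.67 at day 7 when single libraries were left out, and at day 7 it was -0.03 with the replicate block. No other fitted change named for a member over sham reversed. Same-letter MCAO and sham libraries of the same time deviated together with r between -0.21 and 0.127, over 0.1 in 5 of 20 pairs. These weak correlations cannot exclude a pairing by letter, and letters shared across times were not compared. The main fit used no pairing. The replicate block took the calls over all genes from 802 to 644 at day 3 and from 698 to 602 at day 7, and for the members over sham it lost the call of *F13a1* over sham at day 3 (log2 fold change 2.44, adjusted p = 0.0132). ERCC scaling moved the median of all genes over sham to -0.10 at 3 h, 0.14 at 24 h, -0.22 at day 3 and 0.14 at day 7, and the share of called genes that were higher from 81.8% to 64.3% at 3 h, from 93.5% to 77.9% at day 3 and from 59.2% to 82.4% at day 7; over control it moved from 45.0% to 17.0% at 12 h and from 90.6% to 50.3% at day 3. Mean levels of the members moved by less than 1 SD with either scaling.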
